A study of Mus musculus with 4 samples.

Results

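The secreted Wnt inhibitors described here are 10 mouse genes, Sfrp1, Sfrp2, Sfrp4, Sfrp5, Frzb, Wif1, Dkk1, Dkk2, Dkk3 and Sostdc1, and their transcripts were read by 19 of 45037 probe sets on Affymetrix arrays. A probe set is a group of short probes that together report 1 transcript, and every probe set that the platform annotation assigns to 1 of these genes alone was taken. Sfrp1 had 5 probe sets, Sfrp5, Frzb, Dkk1, Dkk3 and Sostdc1 had 2 each, and the other 4 genes had 1 each. The SPI group held 2 arrays from sorted mammary basal cells of MMTV-Wnt1-Transgenic (Wnt1-Tg) mice fed soy protein isolate, and the CAS group held 2 arrays from the same kind of cells of Wnt1-Tg mice fed the control diet, whose protein was casein. All 4 arrays came from the strain B66SJL/HEV/J (mixed background), and all carried the transgene, so no array shows these cells without it. The transgene places the Wnt1 ligand under the promoter of the mouse mammary tumour virus, which is active in mammary epithelium. Age and the number of animals behind each array are not given in the sources used here, so p-values here reflect how far these particular arrays scatter, and that scatter may be technical. The sorted basal population contains stem cells, myoepithelial cells and their progenitors, per the labels.

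Wnt ligands act by joining a Frizzled receptor to the co-receptors Lrp5 and Lrp6, which stabilises beta-catenin and turns on its target genes. Secreted inhibitors stop this outside the cell in different ways. The secreted frizzled-related proteins (Sfrp1, Sfrp2, Sfrp4, Sfrp5 and Frzb, also called Sfrp3) carry a domain like that of the Frizzled receptors and bind Wnt ligands, and Wif1 binds them through a domain of its own. Dkk1 and Dkk2 bind Lrp5 and Lrp6, while Dkk3 is a divergent member of that family whose role in Wnt signalling is less settled. Sostdc1 binds Lrp co-receptors and also BMP ligands. In many tumours these genes are silenced, and Dkk1 and several others are themselves turned on by beta-catenin in some tissues.

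None of the 19 probe sets differed between SPI and CAS once p-values were adjusted over the whole table (limma with the Benjamini-Hochberg method, threshold 0.05), where 1.50% of all probe sets did, 0.249% higher and 1.25% lower in SPI. The lowest adjusted p among them was 0.0755, for Sfrp2. At an unadjusted p under 0.05 there were 6 probe sets of 5 genes, against 17.8% of all probe sets (9.43% higher and 8.35% lower in SPI). Of these 6, 4 were lower in SPI (Sfrp2, Dkk2 and 2 probe sets of Sfrp1) and 2 were higher (1 of Dkk1 and 1 of Sostdc1). The differences of the 19 ran from -0.65 to 0.42 on the log2 scale with a median of -0.067, beside a median of 0.023 over all probe sets. Among all probe sets 676 passed the threshold, 112 higher and 564 lower in SPI. A second scale set each array by its hybridization controls (spiked-in transcripts of microbial origin), and is called the spike-in scale below. On it 3290 passed, 2552 higher and 738 lower, and among the inhibitors 3 passed, namely Dkk2 (lower) and the Dkk1 and Sostdc1 probe sets that were higher. The spike-in scale adds 0.17 to every difference and moves the median of all probe sets to 0.19. Its shift is separate for each array, so the scatter between arrays of a diet changes as well. The controls were read from the same deposited values, which were already normalized. Whether this scale reflects amounts of RNA was not tested. Differences are given here on the deposited scale and are to be read against a median near 0.

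**Figure D1:**
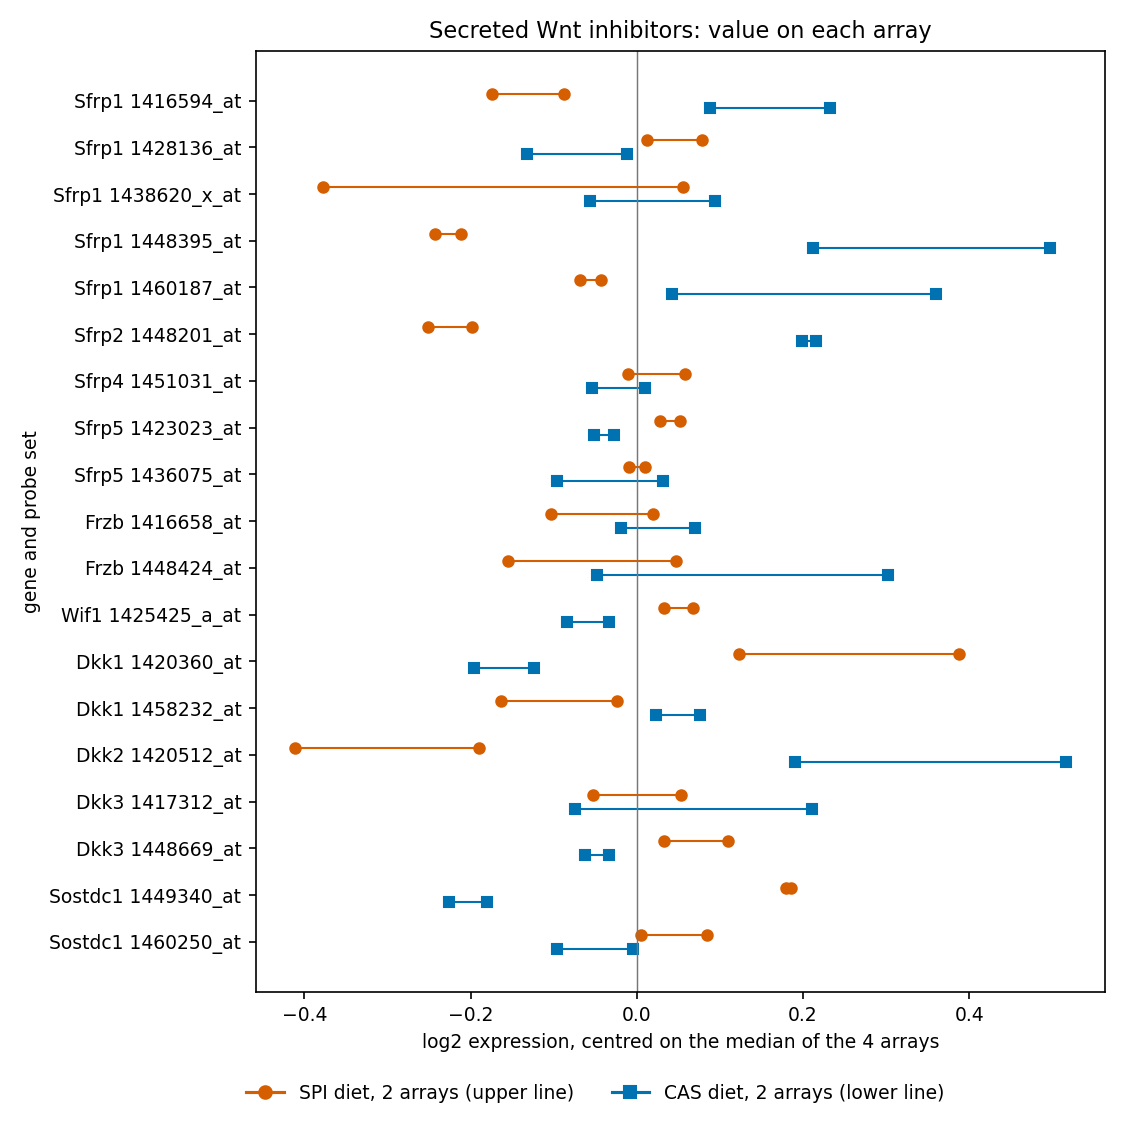
Centred log2 value of each of the 19 probe sets (rows) on each array, with the 2 SPI arrays as circles on the upper line and the 2 CAS arrays as squares on the lower line. The group means are furthest apart for Dkk2 and for the Sfrp1 probe set 1448395_at, both lower in SPI. Among the probe sets higher in SPI they are furthest apart for Dkk1 1420360_at and Sostdc1 1449340_at.

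The deposited values had been centred so that the median of the 4 arrays is 0 for each probe set, and therefore the 2 middle arrays always carry equal and opposite values. Absolute levels were lost, but the last digits of each value still show a rough class of level on the log2 scale before centring, which can be 1 class too high (16.6% in the top class still had the digits of a coarser step). By this measure 6 inhibitor probe sets were in the class 8 to 16, among them both of Sfrp5, that of Wif1 and 1449340_at of Sostdc1. Another 10 were in the class 4 to 8, and 3 in the class 2 to 4, which were both Dkk1 probe sets and 1 of Frzb. Of 43 probe sets of olfactory receptors, genes that serve smell, 9 reached 4 or above, against 82 of 90 for ribosomal proteins, so a class under 4 is where little-used genes mostly lie and a higher one does not establish expression. The defining basal markers Krt5, Krt14, Trp63 and Acta2 each had a probe set in the class 8 to 16. So did Krt8 and Krt18 of luminal cells, Lum of fibroblasts and Ptprc of leukocytes, so markers of other cell types were also measured at high classes.

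Sfrp2, a secreted frizzled-related protein made largely by stromal cells, had the smallest p of the 19 probe sets. Its probe set 1448201_at was at -0.20 and -0.25 on the SPI arrays, against 0.20 and 0.22 on the CAS arrays. Both SPI arrays were low and both CAS arrays high, with replicates close to each other. Sfrp2 was 1.35-fold lower in SPI with a 95% interval of 1.18 to 1.54 (n = 2 per diet, limma unadjusted p = 0.00193, adjusted p = 0.0755). On the spike-in scale Sfrp2 differed by -0.26 (limma adjusted p = 0.134). With replicate number as a block its adjusted p was 0.222. The call changed with the set of features fitted. With 1 value per gene, which for Sfrp2 is this same probe set, the adjusted p over 18193 genes was 0.0288, and among the probe sets at level 4 or above it was 0.0337.

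Sfrp1, which is expressed by mammary epithelial cells as well as stroma, was read by 5 probe sets that did not give the same answer. Probe set 1448395_at was at -0.24 and -0.21 on the SPI arrays, against 0.21 and 0.50 on the CAS arrays. This was 1.50-fold lower in SPI with a 95% interval of 1.22 to 1.83 (n = 2 per diet, limma unadjusted p = 0.00365, adjusted p = 0.102). Probe set 1416594_at, the 1 of the 5 in the class 8 to 16, was at -0.088 and -0.17 on the SPI arrays, against 0.088 and 0.23 on the CAS arrays, a difference of -0.29 (limma adjusted p = 0.203). The groups did not overlap in either case, and the interval of the second difference was -0.52 to -0.063. On the spike-in scale these differences were -0.41 and -0.12 (limma adjusted p = 0.0635 and 0.423). Probe set 1460187_at was also lower in SPI, at -0.26, but 1 CAS array lay at 0.36 and the other at 0.043. Probe set 1438620_x_at, whose suffix marks probes that can match other transcripts, overlapped between diets because the SPI arrays themselves lay at 0.056 and -0.38. Probe set 1428136_at went the other way, with 0.079 and 0.012 on the SPI arrays against -0.012 and -0.13 on the CAS arrays, a difference of 0.12 (interval -0.096 to 0.33). Averaged over its 5 probe sets, Sfrp1 differed by -0.24 (interval -0.41 to -0.062, limma adjusted p over genes = 0.144). Whether the probe sets differ from each other beyond error was not tested.

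The other frizzled-related genes and Wif1 showed small differences. Sfrp4, a stromal inhibitor, was at 0.058 and -0.010 on the SPI arrays and 0.010 and -0.054 on the CAS arrays, so the diets overlapped, and its difference of 0.046 had an interval of -0.15 to 0.24. The probe sets of Sfrp5 differed by 0.080 and 0.032, with intervals reaching 0.27 and 0.24 at most. Frzb differed by -0.067 and -0.18, the second with an interval of -0.55 to 0.19 because its CAS arrays lay at -0.047 and 0.30. On the spike-in scale the first Frzb value turned positive, at 0.10. Wif1 was at 0.068 and 0.033 on the SPI arrays, against -0.084 and -0.033 on the CAS arrays. Both SPI arrays were the higher ones, but the difference was 0.11 (interval -0.081 to 0.30, limma adjusted p = 0.506). The 95% intervals of Sfrp4, Sfrp5, Frzb and Wif1 all exclude a 2-fold change on the deposited scale.

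The sequences before the transcription start are shown for Dkk1 and Dkk2, whose probe sets 1420360_at and 1420512_at had the highest and lowest difference of the 19, and for Sfrp2, which had the smallest p. Averaged per gene, Sostdc1 at 0.24 was above Dkk1 at 0.14. Each is the 250 bases before the start given by RefSeq on build GRCm38.p6, on the strand of the gene. Windows of 6 of the 10 inhibitors were found by symbol. Capitals mark the letters CTTTGA or CTTTGT on either strand, the core that TCF and LEF factors, the partners of beta-catenin, recognise.
Dkk1, chr19:30549497-30549746, minus strand: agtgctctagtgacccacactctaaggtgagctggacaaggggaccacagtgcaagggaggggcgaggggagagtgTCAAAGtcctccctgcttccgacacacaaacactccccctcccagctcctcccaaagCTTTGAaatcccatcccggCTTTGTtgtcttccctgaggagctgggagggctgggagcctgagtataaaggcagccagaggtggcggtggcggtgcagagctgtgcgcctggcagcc
Dkk2, chr3:132085042-132085291, plus strand: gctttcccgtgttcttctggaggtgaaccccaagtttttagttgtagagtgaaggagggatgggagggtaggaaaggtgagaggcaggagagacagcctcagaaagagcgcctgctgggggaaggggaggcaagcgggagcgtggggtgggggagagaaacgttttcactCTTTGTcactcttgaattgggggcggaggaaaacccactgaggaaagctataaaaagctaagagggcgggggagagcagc
Sfrp2, chr3:83766071-83766320, plus strand: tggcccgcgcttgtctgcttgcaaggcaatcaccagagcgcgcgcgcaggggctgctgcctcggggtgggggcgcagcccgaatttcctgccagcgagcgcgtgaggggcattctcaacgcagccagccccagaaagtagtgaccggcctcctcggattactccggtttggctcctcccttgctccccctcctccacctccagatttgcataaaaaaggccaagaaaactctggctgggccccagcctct
The Dkk1 window held 3 matches, beginning 174, 117 and 98 bases before the start, of which the first was on the other strand. The Dkk2 window held 1, beginning 80 bases before the start, and the Sfrp2 window held 0. Of all 32817 windows of this length 27.6% held at least 1 match, as did 3 of the 6 inhibitor windows. A single match is therefore common, and how often a window holds 3 was not counted. A match does not show that a factor binds there.

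Dkk2, which binds Lrp5 and Lrp6, had the largest difference of the 19. It was at -0.19 and -0.41 on the SPI arrays, against 0.19 and 0.52 on the CAS arrays. The groups did not overlap, but replicates of each diet were further apart than those of Sfrp2. Dkk2 was 1.57-fold lower in SPI with a 95% interval of 1.22 to 2.03 (n = 2 per diet, limma unadjusted p = 0.00561, adjusted p = 0.122). Of all probe sets 1.96% had a larger difference in either direction, a rank given for the largest of 19 and therefore no measure of rarity. On the spike-in scale its difference was -0.48 with an adjusted p of 0.0493.

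Dkk1, the best known inhibitor of the co-receptors, gave opposite signs at its 2 probe sets, both in the class 2 to 4. Probe set 1420360_at was at 0.39 and 0.12 on the SPI arrays, against -0.20 and -0.12 on the CAS arrays, which is 1.33-fold higher in SPI with a 95% interval of 1.09 to 1.63 (n = 2 per diet, limma unadjusted p = 0.0133, adjusted p = 0.169). Probe set 1458232_at was at -0.024 and -0.16 on the SPI arrays, against 0.024 and 0.076 on the CAS arrays, a difference of -0.14 with 0.028 on the spike-in scale. Neither pair of groups overlapped. The mean of both probe sets differed by 0.14 (interval -0.088 to 0.36), so the array gives no settled direction for Dkk1.

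Dkk3 also had 1 probe set on each side of 0. Probe set 1448669_at differed by 0.12 (interval -0.076 to 0.31), with both SPI arrays above both CAS arrays. Probe set 1417312_at, in the class 8 to 16, differed by -0.068 (interval -0.37 to 0.24), or 0.10 on the spike-in scale. Its CAS arrays, at -0.075 and 0.21, enclosed both SPI arrays, at 0.053 and -0.053.

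Sostdc1, an inhibitor of both Wnt and BMP signalling, was higher in SPI at its probe set in the class 8 to 16. Probe set 1449340_at was at 0.186 and 0.180 on the SPI arrays, against -0.18 and -0.23 on the CAS arrays. The SPI arrays were nearly equal and lay well above both CAS arrays. Sostdc1 was 1.31-fold higher in SPI here with a 95% interval of 1.15 to 1.49 (n = 2 per diet, limma unadjusted p = 0.00309, adjusted p = 0.0943). Among the probe sets at level 4 or above the adjusted p was 0.0428, and on the spike-in scale it was 0.0278. The other probe set, 1460250_at, was at 0.084 and 0.0047 on the SPI arrays and -0.096 and -0.0047 on the CAS arrays, a difference of 0.095 (interval -0.11 to 0.30). Averaged over both, Sostdc1 differed by 0.24 (interval 0.081 to 0.40, limma adjusted p over genes = 0.117).

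**Figure D2:**
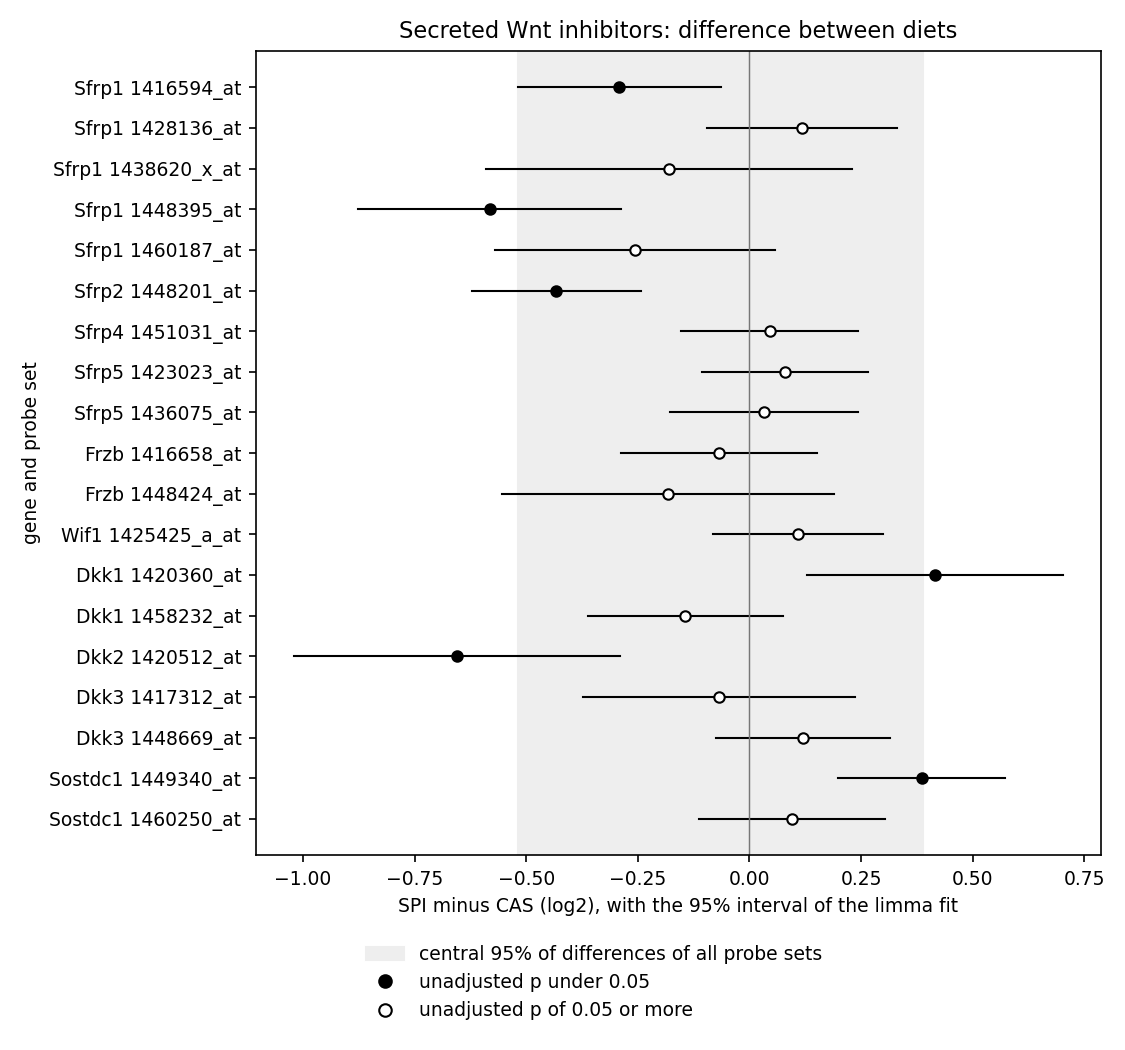
Difference between diets (SPI minus CAS, log2) of each of the 19 probe sets, with the 95% interval of the limma fit as a line and the central 95% of all probe sets shaded, from -0.52 to 0.39. Filled points mark the 6 probe sets with an unadjusted p under 0.05, of which Dkk2 at -0.65 is the furthest from 0.

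In 13 of the 19 probe sets the values of the diets did not overlap, 7 with SPI higher and 6 with SPI lower. Over all probe sets this was so in 48.4%, with 27.9% higher and 20.5% lower in SPI. With 2 arrays against 2, an exact two-sided permutation test of a single probe set cannot go below p = 0.333, so the separation alone passes no threshold. No interval of the 19 reached below -1.02 or above 0.70 on the log2 scale.

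Markers of other cell types differed between the same arrays. Of 26 fibroblast markers 19 fell in SPI and 0 rose, and their probe sets had a median difference of -0.81, with list medians of -0.42 and -0.44 on the SPI arrays against 0.38 and 0.46 on the CAS arrays. Lum, a proteoglycan of connective tissue, was 5.01-fold lower in SPI (limma adjusted p = 0.00416), and both Col1a1 probe sets, for a chain of type I collagen, were 3.28-fold and 3.23-fold lower. Of 14 endothelial and pericyte markers 4 fell (median -0.68), and of 14 luminal markers 7 fell (median -0.59), Krt18 among them at 1.66-fold lower. Of 17 basal and myoepithelial markers Krt15 and Oxtr rose, at 0.73 and 0.68, while Krt5 was at -0.042 and the others did not pass. Of 15 leukocyte markers 0 passed, and their median was 0.15. At an unadjusted p under 0.05 were 9 of their 27 probe sets, beside 17.8% of all probe sets. Of 9 adipocyte markers Lpl fell. With gene means 2 adipocyte markers passed as higher in SPI and 1 as lower. On the spike-in scale 2 adipocyte probe sets were higher and 4 lower. By gene means Sfrp1, Sfrp2, Frzb and Dkk2 lay on the same side of 0 as the fibroblast, endothelial and luminal lists, at -0.24, -0.43, -0.12 and -0.65. Sfrp4, Sfrp5, Wif1, Dkk1, Dkk3 and Sostdc1 lay on the other, between 0.026 and 0.24. The intervals of Frzb, Sfrp4, Sfrp5, Wif1, Dkk1 and Dkk3 span 0, so the side of these genes is not settled. For Frzb the 0.17 that the spike-in scale adds is also larger than its distance from 0. The part of these cell types in the values of the inhibitors was not tested, and fewer cells of a type cannot be told apart from less RNA per cell in such samples.

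The rest of the Wnt pathway was read through 7 lists. Of 11 other inhibitors acting outside or at the surface of cells, 1 rose and 10 did not pass. It was Tpbg, a membrane protein that blocks Wnt signalling in zebrafish, at 0.78 for probe set 1423312_at (1.72-fold higher in SPI, limma adjusted p = 0.0251), while its other probe sets were at 0.19 and 0.14. Notum, which removes the lipid from Wnt ligands, was at -0.32 (adjusted p = 0.145), Shisa3 at -0.32 and -0.042, and the 6 probe sets of Igfbp4 between -0.35 and 0.053.

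Of 19 Wnt ligands 1 fell, Wnt5b, at -0.65 for probe set 1439373_x_at (1.57-fold lower in SPI, limma adjusted p = 0.0414) and at -0.36 for the other, which did not pass. Wnt1, the gene of the transgene, was at -0.038 and -0.049 on the SPI arrays, against 0.047 and 0.038 on the CAS arrays (difference -0.086, limma adjusted p = 0.592). This probe set, 1425377_at, was in the class 4 to 8. Whether its probes read the transcript of the transgene was not tested. Of 17 receptors and co-receptors 1 rose, Fzd8, at 0.62 for 1 probe set (1.54-fold higher in SPI, adjusted p = 0.0344) and 0.051 for the other. The co-receptors that Dkk proteins bind did not pass, with Lrp5 at -0.48 (adjusted p = 0.115) and Lrp6 at 0.36 and 0.14. Kremen1, a receptor that works with Dkk proteins, was between 0.0067 and 0.076.

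Of 15 feedback and target genes of beta-catenin 1 fell, Ccnd1, the cyclin of the G1 phase, with all 3 probe sets passing at -0.91, -0.90 and -0.80 (1.88-fold, 1.87-fold and 1.74-fold lower in SPI, limma adjusted p = 0.0275 to 0.0333). Nkd2, an inhibitor inside the cell that is induced by Wnt, was lower at all 4 of its probe sets, from -0.67 to -0.30, without passing. Axin2, a feedback inhibitor and common readout of the pathway, was at 0.37 and 0.073, with an adjusted p of 0.129 for the first. Lef1, a transcription factor that the list of intracellular genes also holds, was at 0.60 and -0.077, and Lgr5 at -0.16 and -0.075. Of 9 R-spondin, Lgr and ligase genes, 15 intracellular genes and 2 secretion genes 0 passed in limma. At an unadjusted p under 0.05 these lists had 4 of 15, 4 of 42 and 1 of 5 probe sets. The feedback and target list had 13 of 37. Ligands, receptors and other inhibitors had 5 of 32, 6 of 41 and 5 of 28. Over all probe sets the share was 17.8%, and whether any list departs from it was not tested. Without SPI replicate 1, SPI replicate 2, CAS replicate 1 or CAS replicate 2 no probe set at all passed, so fits on 3 arrays tell nothing about single calls. The differences without 1 array were 0.73 to 0.84 for Tpbg, -0.72 to -0.58 for Wnt5b, 0.59 to 0.64 for Fzd8 and -1.01 to -0.71 over the Ccnd1 probe sets. On the spike-in scale the feedback and target list had 4 probe sets higher and 4 lower in SPI, and the basal and leukocyte lists had 6 higher each.

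**Figure D3:**
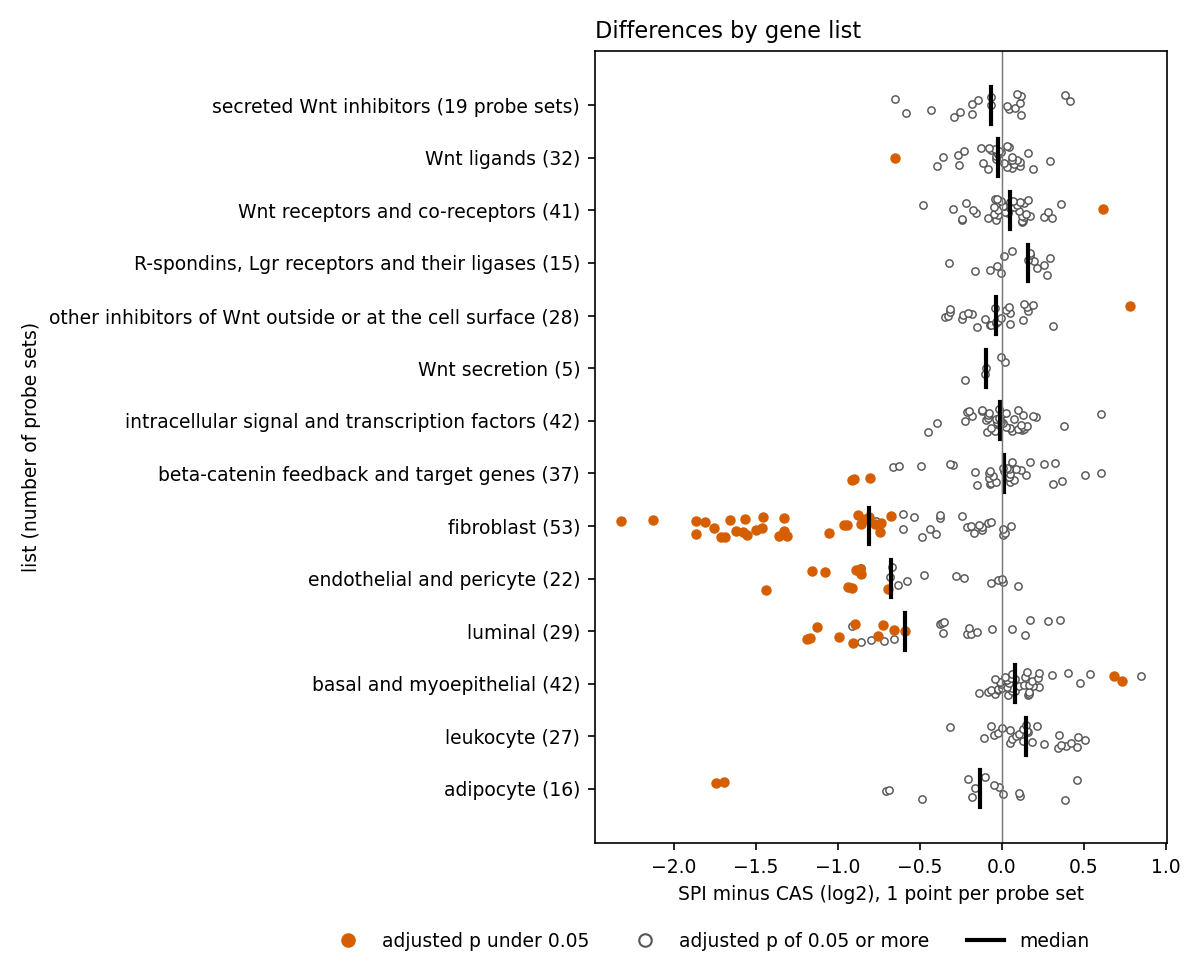
Difference between diets (SPI minus CAS, log2) of every probe set of the secreted Wnt inhibitors, the 7 pathway lists and the 6 marker lists, with filled points for an adjusted p under 0.05 and a bar at the median. The median of the inhibitors is -0.067 and those of the pathway lists lie between -0.099 and 0.16, while the fibroblast list has a median of -0.81.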

How the data were processed

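RNA of 4 samples was hybridized to Affymetrix arrays. The values deposited by the authors are log2 expression values, made with GCOS and RMA per the submitters' processing notes, which name no versions. The log base is taken from RMA. The centring per probe set is seen in the values and is not described in the labels. Of 45101 probe sets 64 are controls, and 34945 of the others have 1 gene, with 34741 symbols brought up to date through gene IDs.

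The 45037 probe sets were fitted one by one in R 4.3.3 by limma 3.58.1, as a two-sided test of SPI minus CAS through lmFit and eBayes with 2 residual and 3.11 prior degrees of freedom. The number of arrays limits the precision. A gene of a list counts as risen or fallen when at least 1 probe set passes at an adjusted p under 0.05. Named were the 10 inhibitors, the 4 genes with the smallest p in each pathway list, the 3 in each marker list and a fixed set of others, and not all of these are printed. The members and lists were chosen with earlier results of these data known. The fit was checked on simulated arrays with independent normal scatter and no centring per probe set. That check does not cover centred values or effects shared across an array. Other settings tried were a block on replicate number, leaving out single arrays, centring on array medians or on hybridization controls (the spike-in scale), gene means, a filter at level 4, robust eBayes and other thresholds. The variance trend over intensity was not used, since centring removed the levels.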

Additional observations from a re-analysis of the deposited data

How the results depend on the processing

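The count of 0 inhibitor probe sets in limma, with 6 at an unadjusted p under 0.05, was also 0 with the replicate block, with arrays centred on their median and with robust eBayes. It was 3 of 19 on the spike-in scale and 2 of 19 at an adjusted p under 0.10. At level 4 or above 2 of 16 inhibitor probe sets passed (Sfrp2 and Sostdc1 1449340_at), and by gene means 1 of 10 genes (Sfrp2). Gene means and the level filter test fewer features and also estimate the variance anew, and which of these moved the calls was not tested. Over all 45037 probe sets 676 passed, against 79 with the replicate block (4 higher, 75 lower) and 3290 on the spike-in scale. At an adjusted p under 0.01 the count was 114, and under 0.10 it was 1579. At level 4 or above 1343 of 28671 probe sets passed (406 higher, 937 lower). By gene means 727 of 18193 genes passed (164 higher, 563 lower). Whether the inhibitors passed more often than all features was not tested. Without 1 array the count over all probe sets was 0 each time, with 4882 to 6513 at an unadjusted p under 0.05, so these fits say nothing about the count of the inhibitors. With the replicate block the fibroblast list had 9 probe sets lower in SPI, against 31 without it, the adipocyte list kept a count of 2, and the other marker lists and all pathway lists had 0, with adjusted p of 0.0805 to 0.154 for Ccnd1, Tpbg, Fzd8 and Wnt5b. Whether same-numbered arrays share a batch or other pairing is not known. The correlation of their deviations from the group means was -0.0989, which with 2 arrays a diet cannot settle it. Centring on the hybridization controls turned the sign of Frzb 1416658_at (0.10), Dkk1 1458232_at (0.028) and Dkk3 1417312_at (0.10). Without 1 array the difference ran from -0.40 to 0.037 for Sfrp1 1438620_x_at, from -0.031 to 0.096 for Sfrp5 1436075_at and from -0.21 to 0.075 for Dkk3 1417312_at. The other 16 inhibitor probe sets kept their sign without any 1 array. For the 13 whose diets did not overlap this was fixed in advance, since leaving out an array cannot turn their sign. Of the 6 with an unadjusted p under 0.05, Sfrp2 ran from -0.46 to -0.41 and Dkk2 from -0.82 to -0.49. Sostdc1 ran from 0.36 to 0.41 and Dkk1 from 0.28 to 0.55. For Sfrp1 the range was -0.36 to -0.22 at 1416594_at and -0.72 to -0.44 at 1448395_at. The level class follows the lowest array, so a fall in either diet can take a probe set out of the filter.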
